A study of Mus musculus with 6 samples.

Results

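Glucose uptake, glycolysis, lactate handling and the pentose phosphate pathway were described isoform by isoform in differentiated mouse brown fat cells. The set held 34 genes, named by enzyme and transporter family, among 18193 genes that had a probe set with 1 symbol on the array. Of the 34 genes, 29 had such a probe set, each gene was read from its brightest one, and 26 lay above a filter on dim genes set at an intensity of 163.6. Pgam2, Eno2 and Slc16a7 lay below it and are given as values only. Gapdh was represented by 3 probe sets that carry several symbols, and Gpi1, Pfkfb1, Eno1 and G6pdx had no probe set named here, so these 5 genes were not analysed here.

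The study compared 3 kinds of immortalised brown fat cells on day 7 of differentiation, with 2 arrays each. Knockdown cells were PGC-1alpha -/- and expressed an siRNA specific for PGC-1beta. Knockout-control cells were PGC-1alpha -/- and expressed a control siRNA. Wild-type cells were WT, with no siRNA named in their titles, and had a stated passage number of 4. All 3 kinds carried large T antigen driven by SV40, and the label of 1 wild-type array names a mouse of mixed background as the source of the brown fat. The labels do not say how many animals or clones stand behind a line, so p-values measure the spread between these arrays, which may be technical although the series design calls the replicates biological.

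PGC-1alpha and PGC-1beta are transcriptional coactivators of mitochondrial genes. Glucose enters adipocytes through SLC2A (GLUT) transporters and is trapped by hexokinases. Glycolysis then turns it into pyruvate, lactate dehydrogenase tetramers interconvert pyruvate and lactate, and SLC16A (MCT) transporters carry lactate across the membrane. The pentose phosphate pathway branches off at glucose 6-phosphate and supplies NADPH, which lipid synthesis uses. Most steps are encoded by several genes whose products differ in tissue distribution and regulation, and brown fat is known for a high rate of glucose uptake when it is activated.

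The targeted genes and the state of the cells were examined before the pathway. Ppargc1b had intensities of 534 and 224 in knockdown cells, against 1862 and 2302 in knockout-control cells, and stood at 2850 and 3162 in wild-type cells. The 5 probe sets of Ppargc1a kept signals between 282 and 830 in knockout-control cells, and neither the deleted part of the gene nor what the probes cover was known here, so this signal does not check the deletion. Eif2s3y, on the Y chromosome, stood at no more than 6.25 on the knockdown and knockout-control arrays with a value, against 872 and 961 in wild-type cells. Sex, genotype, siRNA vector and cell line therefore cannot be told apart in any comparison with wild type. Array medians lay between 220.9 and 242.7. Knockdown array 2 and knockout-control array 1 held the most empty table cells, 360 and 334, against 17 to 106 on the other arrays. These 2 arrays also deviated from their group means in the same direction: deviations of knockdown array 1 and knockout-control array 1 correlated with r = -0.50 across 13344 genes, which are not independent replicates.

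All 10 brown adipocyte markers and 8 of the 9 general adipocyte markers with a probe set lay above the filter, among them Ucp1 and Adipoq. The filter uses the mean over all 6 arrays, so passing it does not show expression in each kind of cell. In knockdown cells Ucp1, at 156 and 105, and Dio2, at 62.0 and 66.7, lay below the intensity of the filter. The other brown markers lay above that intensity on every array. The brown markers include Ppargc1a, the gene targeted in both knockout lines. Their summed intensity was 14306 and 10782 in knockdown cells, against 23035 and 23155 in knockout-control cells, and it was 27112 and 26626 in wild-type cells. In knockdown against knockout-control cells 4 of the 10 fell, with Ucp1 at 156 and 105 in knockdown cells against 4199 and 3725 in knockout-control cells. The 7 general adipocyte markers with a value on every array summed to 57782 and 54712 in knockdown cells. They summed to 64565 and 59384 in knockout-control cells and 56736 and 55763 in wild-type cells. None of 8 was called by limma between knockdown and knockout-control, where 1 had an unadjusted p under 0.05, as did 1930 of 13649 genes over all genes. Of the other 6 brown markers 4 had a positive sign in that step and none was called. Against wild type 6 of the 10 fell and 1 rose in knockdown cells, and 1 fell and 1 rose in knockout-control cells. The one that rose was Elovl3, a fatty acid elongase, at 2527 and 1612 in knockdown cells, 1686 and 1903 in knockout-control cells and 240 and 209 in wild-type cells. Of the 8 general adipocyte markers 1 rose against wild type in knockdown cells and 1 in knockout-control cells, and none fell. Over all genes 10.0% and 6.05% were called in these comparisons, and 0.835% between knockdown and knockout-control. The part of these marker changes in the results described below was not tested. In these bulk samples fewer cells of a type and less RNA per cell cannot be told apart.

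Tests across all genes used limma on log2(intensity + 32), a scale that understates the change of dim genes, and a gene was called at a Benjamini-Hochberg adjusted p under 0.05 over all genes tested. Knockdown cells differed from knockout-control cells in 2 of the 26 genes, Aldoc, which rose, and Ldhb, which fell. Knockout-control cells differed from wild-type cells in 6 genes: Hk2 rose, and Hk1, Pfkm, Aldoc, Ldhb and Slc16a3 fell. Knockdown cells differed from wild-type cells in 7 genes, of which Pfkfb3 and Pgd rose and Hk1, Pfkm, Pfkfb2, Ldhb and Slc16a3 fell. Over all genes the share called was 0.835% between knockdown and knockout-control (0.271% higher and 0.564% lower), 6.05% between knockout-control and wild type (2.55% higher and 3.50% lower) and 10.0% between knockdown and wild type (4.00% higher and 6.0% lower). The median log2 fold change of the 26 genes was -0.09, -0.12 and -0.21 in these 3 comparisons, beside -0.01, 0.00 and -0.03 over all genes. The 2 groups did not overlap for 11, 20 and 22 of the 26 genes, against 38.5%, 58.1% and 55.0% of all genes. With shares this high, a lack of overlap given below only describes the arrays. The comparisons share arrays, so their counts are not independent of each other. With no filter on dim genes the calls of Aldoc and Ldhb between knockdown and knockout-control, of Ldhb and Pfkm between knockout-control and wild type, and of Pfkfb3 and Pgd between knockdown and wild type were lost.

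**Figure D1:**
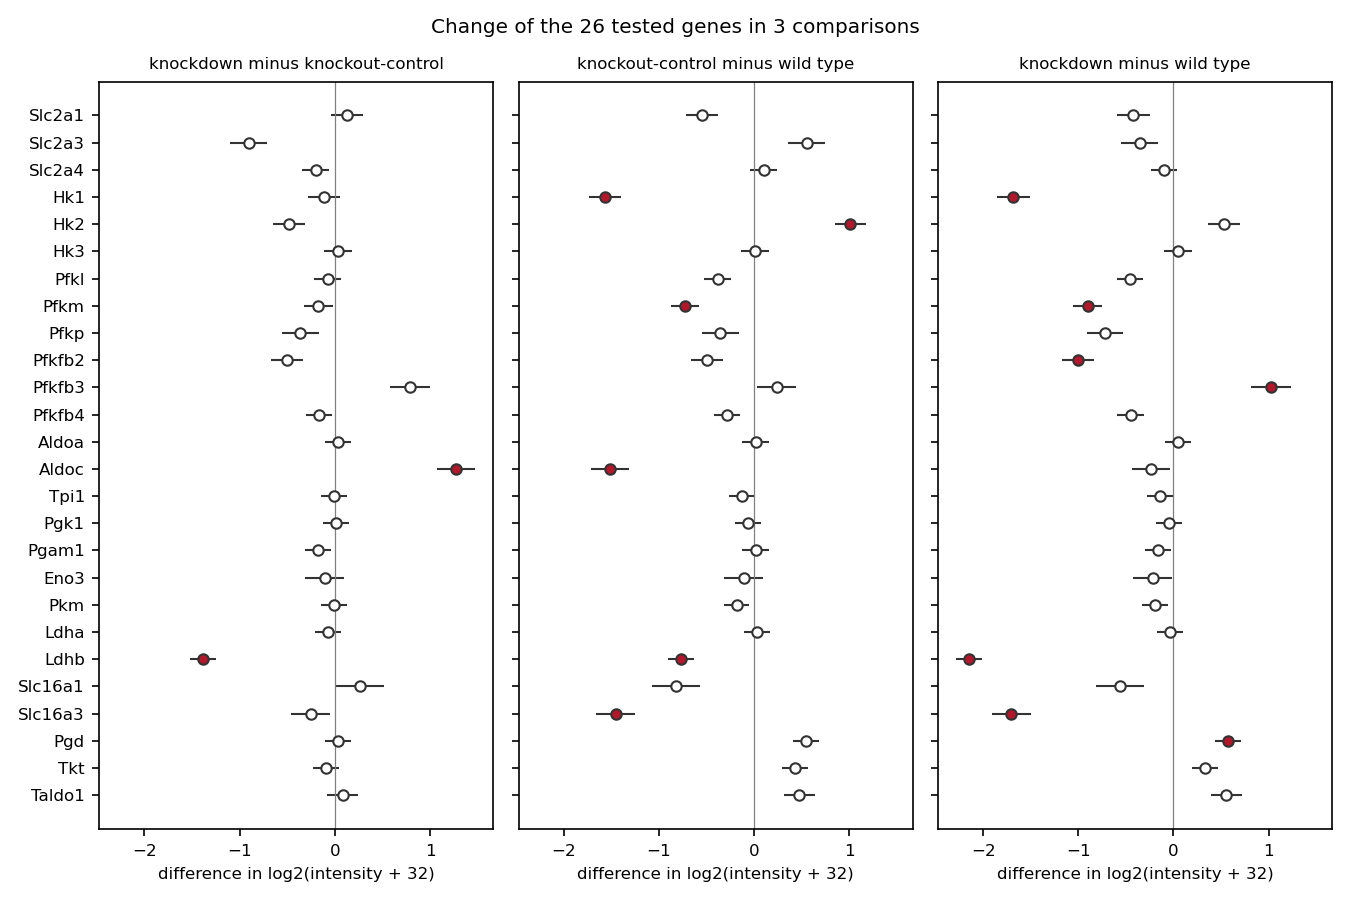
Difference in log2(intensity + 32) for each of the 26 genes above the filter (rows, in pathway order) in 3 comparisons (panels), each the mean of 2 arrays minus the mean of 2 arrays. Bars are limma standard errors and filled points passed the test over all genes, 2, 6 and 7 of them from left to right, with Ldhb filled in every panel.

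Ldhb, which encodes the heart-type subunit of lactate dehydrogenase, was the only one of the 26 genes called in all 3 comparisons. Its intensity was 1042 and 1005 in knockdown cells, 2783 and 2671 in knockout-control cells and 4729 and 4579 in wild-type cells. The 3 groups did not overlap, and knockdown cells were lowest and wild-type cells highest. Ldhb fell 2.61-fold in knockdown against knockout-control cells (-1.39 on the log2 scale, SE 0.14, adjusted p = 0.00657 in limma) and 1.70-fold in knockout-control against wild-type cells (-0.76 ± 0.14, limma adjusted p = 0.0155). Against wild type the knockdown value was 4.44-fold lower (-2.15 ± 0.14, limma adjusted p = 0.000118). Each of the 3 further probe sets of Ldhb was called in each comparison when every probe set was fitted on its own. Their log2 fold changes lay between -2.27 and -1.50 for knockdown against knockout-control and between -0.87 and -0.80 for knockout-control against wild type. With 1 array left out, the knockdown step of Ldhb lost its call without either knockout-control array (highest limma adjusted p = 0.0827), and the knockout step without any of the 4 arrays it uses (highest limma adjusted p = 0.176), while the log2 fold change stayed between -1.42 and -1.36 in the first step and between -0.79 and -0.74 in the other.

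Ldha, the muscle-type subunit made in most cells, had intensities of 11742 and 12398 in knockdown cells, 13017 and 12304 in knockout-control cells and 12276 and 12527 in wild-type cells, and the groups overlapped. None of its log2 fold changes exceeded 0.07 in size and none passed. The ratio of Ldhb to Ldha on an array, taken relative to the wild-type mean, was -2.05 and -2.18 on the log2 scale in knockdown cells and -0.80 and -0.78 in knockout-control cells, against 0.04 and -0.04 in wild-type cells. The highest intensity of any probe set was 14016 to 15531, depending on the array. Whether bright probe sets such as those of Ldha, Aldoa and Pgk1 were still able to register a higher RNA level was not tested.

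Promoters were set beside the intensities for Ldhb, Slc16a3 and Hk2, the called genes for which the RefSeq-derived table of assembly GRCm38.p6 lists 1 start site. The 250 bases before the start are shown 5′ to 3′ on the strand of the gene, with capitals for ACGTG or GCGTG on either strand, the core letters of hypoxia response elements, since many glycolytic genes are known targets of hypoxia-inducible factors.
Ldhb: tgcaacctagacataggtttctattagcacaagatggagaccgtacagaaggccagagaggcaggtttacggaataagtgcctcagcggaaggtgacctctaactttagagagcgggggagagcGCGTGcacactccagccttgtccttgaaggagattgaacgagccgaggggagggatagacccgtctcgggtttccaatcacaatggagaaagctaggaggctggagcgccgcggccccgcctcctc
Slc16a3: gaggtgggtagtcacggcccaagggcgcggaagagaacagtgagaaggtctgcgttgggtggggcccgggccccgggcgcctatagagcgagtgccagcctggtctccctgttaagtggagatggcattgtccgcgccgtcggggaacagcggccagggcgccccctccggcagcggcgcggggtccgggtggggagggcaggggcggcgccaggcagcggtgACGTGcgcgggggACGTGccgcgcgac
Hk2: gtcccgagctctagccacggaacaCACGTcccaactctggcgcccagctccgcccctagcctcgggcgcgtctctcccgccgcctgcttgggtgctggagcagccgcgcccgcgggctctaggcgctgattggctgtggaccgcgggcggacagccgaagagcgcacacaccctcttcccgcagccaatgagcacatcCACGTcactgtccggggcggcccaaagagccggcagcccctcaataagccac
The Ldhb window is chr6:142507958-142508207 on the minus strand, the Slc16a3 window chr11:120948817-120949066 on the plus strand and the Hk2 window chr6:82774455-82774704 on the minus strand. The Slc16a3 window lies inside the gene, which begins at 120948484 in the gene table, and the bases before that position were not read. Slc16a3, which was lower in knockout-control cells, and Hk2, which was higher, each held 2 matches to ACGTG, and Ldhb held 1 match to GCGTG. Of the 31 genes of the set with an entry, 27 held ACGTG or GCGTG in at least 1 of their promoters. Counted by promoter, 37 of 49 held one, and so did 38.6% of all 32851 promoters of that length. Some genes have several promoters, which overlap in part for genes such as Eno1, Pfkm, Aldoa and Pfkfb2. A match can therefore be counted more than once, and the 49 are not independent. Whether the set differs from all promoters was not tested. The E-box CACGTG, which contains ACGTG, occurred in 5 of the 49 promoters and in 6.02% of all. AAGGTCA, the half-site of estrogen-related receptors, with which PGC-1 coactivators work, occurred in 2 of the 49 and in 4.08% of all, and in none of the 3 windows shown. These are matches of letters within the window and not measured binding sites.

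**Figure D2:**
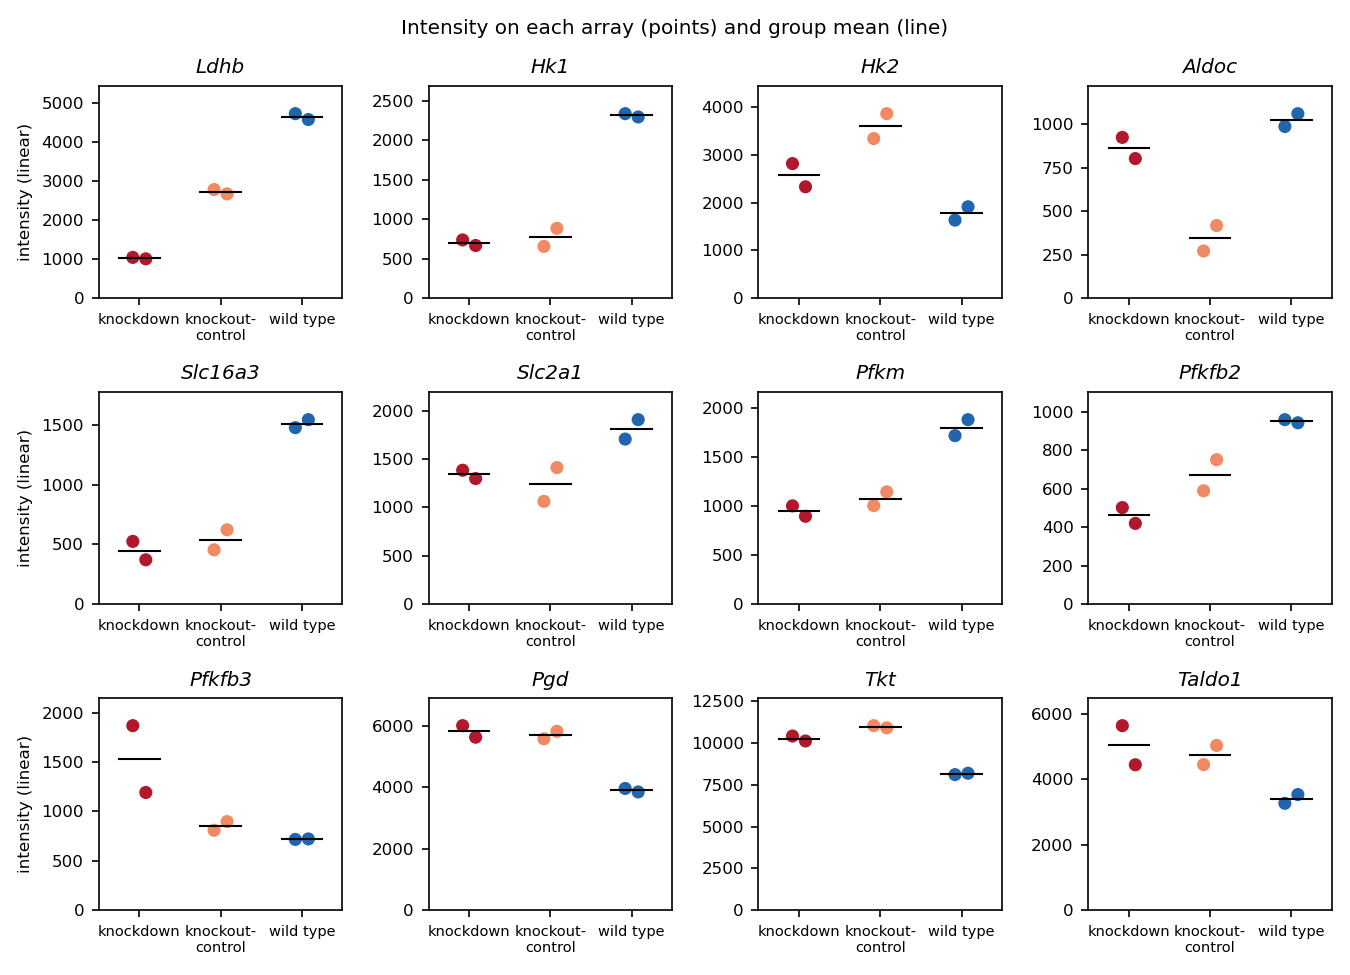
Linear intensity (vertical axis, starting at 0) of 12 genes on each array, with knockdown, knockout-control and wild-type cells from left to right, points for the 2 arrays of a group and a line for their mean. Ldhb was at 1005 to 1042, 2671 to 2783 and 4579 to 4729 in these groups, while Aldoc was lowest in knockout-control cells.

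Among the glucose transporters, Slc2a4 encodes GLUT4, the insulin-responsive transporter of fat and muscle. Its intensities were 3538 and 3243 in knockdown cells, 4035 and 3769 in knockout-control cells and 3697 and 3578 in wild-type cells. It did not pass in any comparison, with log2 fold changes of -0.20 ± 0.14 for knockdown against knockout-control, 0.10 ± 0.14 for knockout-control against wild type and -0.10 ± 0.14 for knockdown against wild type. Its other probe set, about as bright, gave -0.05 ± 0.20, 0.30 ± 0.20 and 0.25 ± 0.20 in the same order, and none passed. The probe sets thus differ in sign for knockdown against wild type. Slc2a1 encodes GLUT1, the basal transporter, and stood at 1385 and 1299 in knockdown cells, 1062 and 1413 in knockout-control cells and 1707 and 1908 in wild-type cells. Both sets of knockout cells were below wild type without overlap, and the differences did not pass (-0.42 ± 0.17, limma adjusted p = 0.168, in knockdown cells and -0.55 ± 0.17, limma adjusted p = 0.108, in knockout-control cells). In the fit of all probe sets, 1 of its 2 further probe sets was called for knockdown against wild type (-0.90 ± 0.23, limma adjusted p = 0.0495), and all 3 had a negative sign in both comparisons with wild type.

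Slc2a3 encodes GLUT3, a high-affinity transporter best known from neurons. Its brightest probe set read 245 and 195 in knockdown cells and 425 and 452 in knockout-control cells, with 236 and 353 in wild-type cells. The knockdown and knockout-control arrays did not overlap, but the difference did not pass (-0.91 ± 0.20, limma adjusted p = 0.0793). With 1 array left out it lay between -1.05 and -0.76. Another probe set gave a like value (-0.84 ± 0.15, limma adjusted p = 0.0644), and the remaining one above the filter gave -0.09 ± 0.21, so the probe sets of Slc2a3 disagree in size.

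Of the hexokinases Hk1 fell and Hk2 rose in knockout-control against wild-type cells. Hk1, the broadly expressed form that binds mitochondria, had intensities of 737 and 666 in knockdown cells, 655 and 885 in knockout-control cells and 2339 and 2297 in wild-type cells. It was 2.96-fold lower in knockout-control than in wild-type cells (log2 fold change -1.57 ± 0.17, limma adjusted p = 0.00163) and 3.21-fold lower in knockdown than in wild-type cells (-1.68 ± 0.17, limma adjusted p = 0.00107). The knockdown and knockout-control arrays overlapped (-0.11 ± 0.17, limma adjusted p = 0.822), and both calls against wild type held with any 1 array left out. Its other probe set fell as well, with log2 fold changes of -2.30 in knockdown and -1.95 in knockout-control cells against wild type.

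Hk2, the insulin-regulated form of fat and muscle, had intensities of 2822 and 2335 in knockdown cells, 3347 and 3871 in knockout-control cells and 1635 and 1915 in wild-type cells. It rose 2.02-fold in knockout-control against wild-type cells (1.01 ± 0.17, limma adjusted p = 0.0112), a call lost without wild-type array 1 or either knockout-control array (highest limma adjusted p = 0.117). The knockdown arrays lay between the other groups without overlap. Neither the difference from knockout-control (-0.48 ± 0.17, limma adjusted p = 0.243) nor that from wild type (0.53 ± 0.17, limma adjusted p = 0.0854) passed. With 1 array left out the difference from wild type lay between 0.39 and 0.66. The ratio of Hk2 to Hk1, relative to its wild-type mean, was 2.28 and 2.14 on the log2 scale in knockdown cells and 2.68 and 2.47 in knockout-control cells. Hk3, a form best known from leukocytes, stood between 984 and 1165 on all 6 arrays and its log2 fold changes were 0.01 to 0.05.

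**Figure D3:**
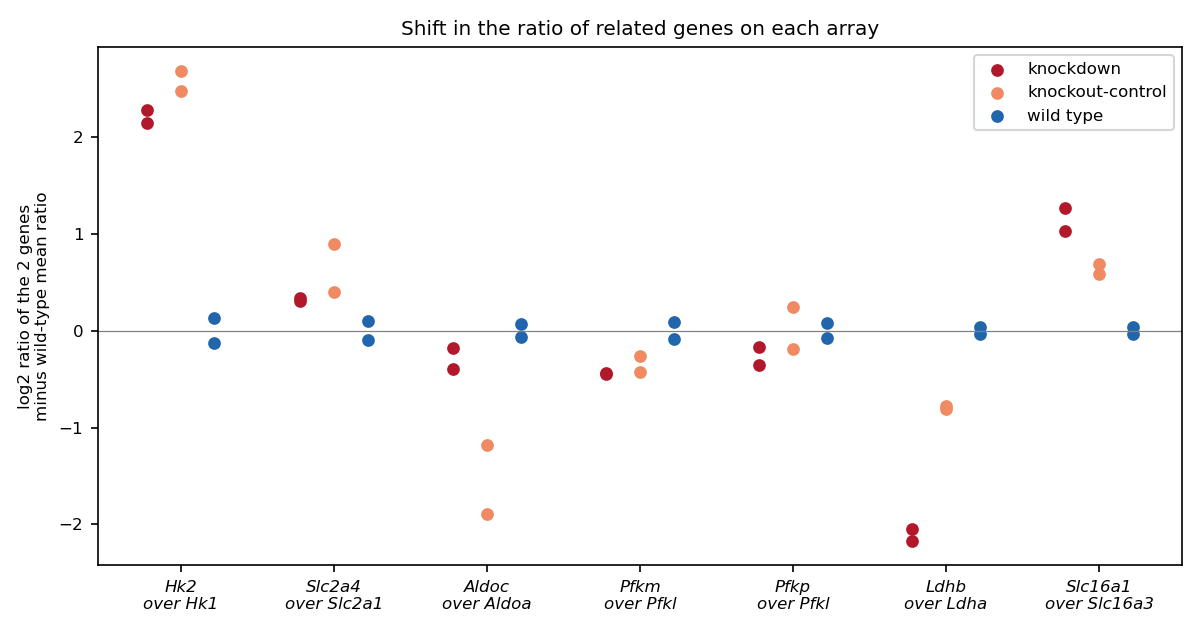
Log2 ratio of related genes on each array, minus the mean ratio of the 2 wild-type arrays (vertical axis), with points for knockdown, knockout-control and wild-type arrays from left to right within each pair. Hk2 over Hk1 lies above 2 in both knockout lines, Ldhb over Ldha lies near -2 in knockdown cells and near -0.8 in knockout-control cells, and Aldoc over Aldoa is lowest in knockout-control cells.

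Phosphofructokinase, which commits sugar phosphates to glycolysis, is built from the muscle (Pfkm), liver (Pfkl) and platelet (Pfkp) subunits. Pfkm had intensities of 1001 and 895 in knockdown cells, 1004 and 1144 in knockout-control cells and 1717 and 1881 in wild-type cells. It was 1.87-fold lower in knockdown than in wild-type cells (-0.90 ± 0.15, limma adjusted p = 0.00908) and 1.66-fold lower in knockout-control than in wild-type cells (-0.73 ± 0.15, limma adjusted p = 0.0274), and the knockdown step did not pass (-0.17 ± 0.15). The call in knockout-control cells was lost without any of the 4 arrays it uses (highest limma adjusted p = 0.274), and that in knockdown cells without either wild-type array (highest limma adjusted p = 0.107). Pfkl stood at 5552 and 4995 in knockdown cells, 5509 and 5587 in knockout-control cells and 7383 and 7118 in wild-type cells, and Pfkp at 1836 and 1439, 1795 and 2462, and 2611 and 2789 in the same groups. On these brightest probe sets both were below wild type without overlap in both knockout lines. None of these differences passed (lowest limma adjusted p = 0.0516, Pfkp in knockdown cells). With 1 array left out, Pfkl lay between -0.53 and -0.38 on the log2 scale in knockdown against wild-type cells. Pfkp lay between -0.89 and -0.55. On their brightest probe sets all 3 subunits had a negative sign in each comparison, and 1 of the 3 was called against wild type. A dimmer probe set of Pfkl and one of Pfkp overlapped between knockout-control and wild-type cells, at 0.04 ± 0.15 and -0.16 ± 0.19. Another of Pfkl gave -0.50 ± 0.17 there without overlap.

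Enzymes encoded by Pfkfb genes make and break fructose 2,6-bisphosphate, an activator of phosphofructokinase. Pfkfb2, the heart form, had intensities of 502 and 420 in knockdown cells, 590 and 752 in knockout-control cells and 960 and 944 in wild-type cells. It fell in knockdown against wild-type cells (-1.0 ± 0.17, limma adjusted p = 0.00938; lost without either wild-type array, highest 0.0714). The difference was -0.51 ± 0.17 against knockout-control cells and -0.50 ± 0.17 between knockout-control and wild-type cells, and neither passed. Pfkfb4 stood at 420 and 377 in knockdown cells, 458 and 444 in knockout-control cells and 554 and 557 in wild-type cells. This is the same order without overlap, and Pfkfb4 did not pass (lowest limma adjusted p = 0.0793). With 1 array left out, its log2 fold change for knockdown against wild type lay between -0.52 and -0.38.

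Pfkfb3, the inducible form with the strongest kinase activity, was the one whose probe sets placed the change at different steps. On its brightest probe set it stood at 1871 and 1193 in knockdown cells, 809 and 897 in knockout-control cells and 716 and 722 in wild-type cells. On the other it stood at 760 and 723 in knockdown cells, 949 and 896 in knockout-control cells and 323 and 357 in wild-type cells. Both probe sets were called for knockdown against wild type, with log2 fold changes of 1.02 ± 0.21 and 1.06 ± 0.15. For knockout-control against wild type the brightest gave 0.24 ± 0.21 and did not pass, while the other gave 1.36 ± 0.15 (limma adjusted p = 0.00175 in the fit of all probe sets). For knockdown against knockout-control the signs differed, 0.79 ± 0.21 and -0.30 ± 0.15, and neither passed. With 1 array left out the brightest gave between 0.47 and 1.11 in that comparison. The call for knockdown against wild type on the brightest probe set was lost without either wild-type array. Which transcripts each probe set reads was not known here.

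**Figure D4:**
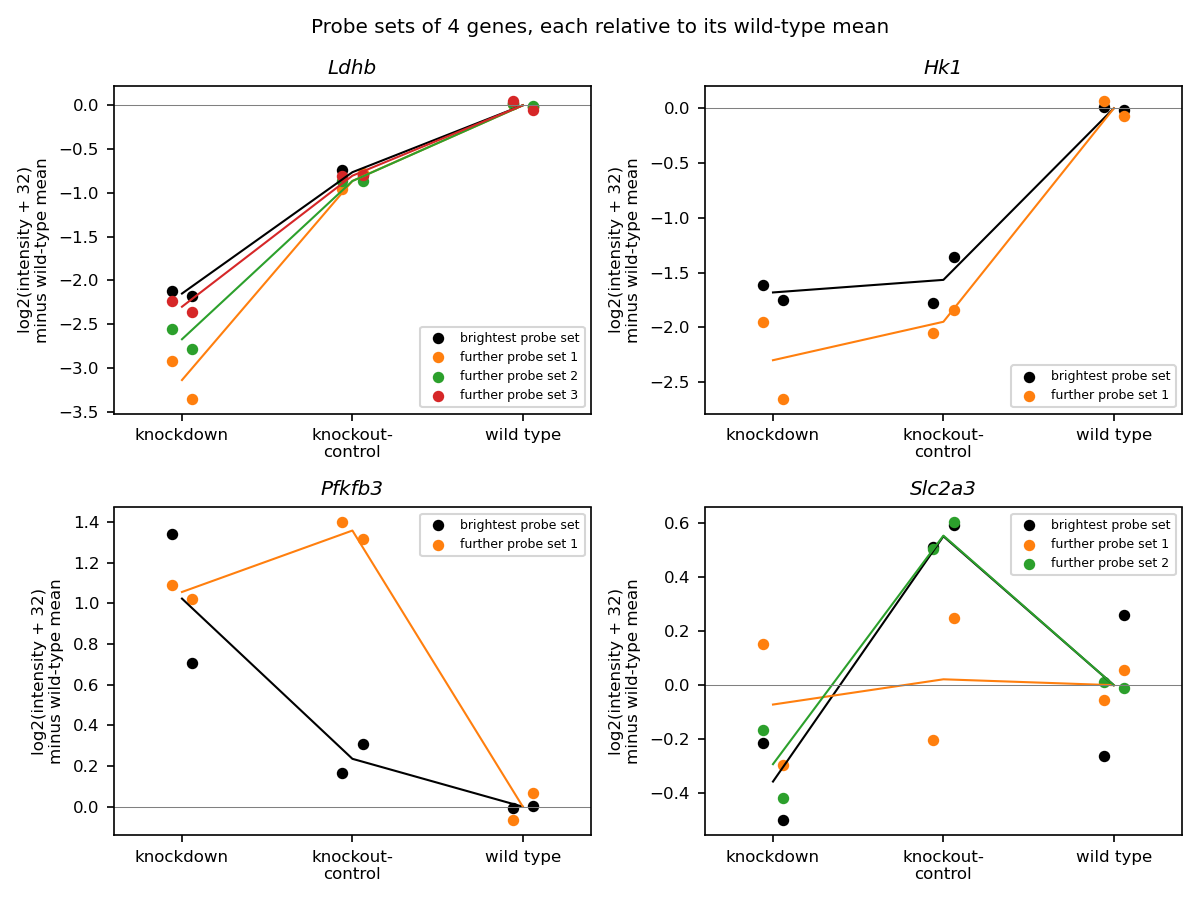
Log2(intensity + 32) of each probe set above the filter for Ldhb, Hk1, Pfkfb3 and Slc2a3, minus that probe set's wild-type mean (vertical axis), with points for the arrays and lines through the means of knockdown, knockout-control and wild-type cells. The 4 probe sets of Ldhb run in parallel in direction, while those of Pfkfb3 differ in knockout-control cells, at 0.24 and 1.36.

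The aldolases split fructose 1,6-bisphosphate. Aldoc, the form best known from brain, had intensities of 925 and 803 in knockdown cells, 271 and 417 in knockout-control cells and 988 and 1062 in wild-type cells. Its lowest values were those of knockout-control cells, and the 3 groups did not overlap. Aldoc rose 2.42-fold in knockdown against knockout-control cells (1.28 ± 0.20, limma adjusted p = 0.0375) and was 2.86-fold lower in knockout-control than in wild-type cells (-1.52 ± 0.20, limma adjusted p = 0.00397). These comparisons share the knockout-control arrays, and the difference between knockdown and wild type did not pass (-0.24 ± 0.20, limma adjusted p = 0.504). The rise was lost without either knockout-control array (highest limma adjusted p = 0.202), whereas the fall held with any 1 array left out. Its other probe set lay below the filter, at 29.1 and 23.6 in knockdown cells, a missing value and 1.59 in knockout-control cells and 57.9 and 87.5 in wild-type cells. With the mean of both probe sets neither call held, at a log2 fold change of 0.24 in the knockdown step and -0.78 in the knockout step. Aldoa, the form made in most cells, stood between 11595 and 12774 on all 6 arrays, with log2 fold changes of 0.02 to 0.05.

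Below aldolase, Tpi1, Pgk1, Pgam1 and Pkm, forms common to most tissues, showed small differences. Gapdh and Eno1 were not analysed, so their steps are not covered. Tpi1, which interconverts the triose phosphates, had log2 fold changes of -0.01 for knockdown against knockout-control, -0.13 for knockout-control against wild type and -0.14 for knockdown against wild type. In the same order Pgk1, phosphoglycerate kinase, had 0.01, -0.06 and -0.05, and Pgam1, phosphoglycerate mutase, had -0.18, 0.01 and -0.16. Pkm, pyruvate kinase, had -0.01, -0.19 and -0.19. None passed (lowest limma adjusted p = 0.424), and a p that misses the threshold does not show that levels were equal. Pgk1 is X-linked, and its intensities of 12234 and 12227 in knockdown cells, 12674 and 11614 in knockout-control cells and 12746 and 12596 in wild-type cells overlapped between knockout-control cells and each of the other groups.

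Muscle forms of the lower pathway were dim. Eno3, the muscle enolase, stood between 168 and 261 on all 6 arrays and its groups overlapped in each comparison. Pgam2, the muscle mutase, was below the filter with 168 and 112 in knockdown cells, 105 and 82.0 in knockout-control cells and 108 and 103 in wild-type cells. Eno2, the neuronal enolase, did not exceed 28.7 on the 4 arrays with a number. Of 14 skeletal muscle markers, 5 lay above the filter and none of these was called in any comparison. The 10 with a value on every array summed to 4124 and 4299 in knockdown cells, 4527 and 4093 in knockout-control cells and 3621 and 3180 in wild-type cells, and Myog, Myh1, Myh2 and Myh4 were below the filter. Of 6 neuron and glia markers above the filter 1 fell, Map2 in knockdown against wild-type cells, and of 7 macrophage markers 1 fell, C1qa in knockdown against knockout-control cells. The neuron and glia markers summed to 2150 and 1750 in knockdown cells, 2340 and 2174 in knockout-control cells and 2532 and 2650 in wild-type cells. None of 2 endothelial and 3 erythroid markers was called.

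Of the lactate transporters, Slc16a3 fell in both comparisons with wild type and Slc16a1 was not called. Slc16a3 encodes MCT4, which exports lactate from glycolytic cells, and had intensities of 524 and 370 in knockdown cells, 453 and 621 in knockout-control cells and 1476 and 1543 in wild-type cells. It was 2.74-fold lower in knockout-control than in wild-type cells (-1.45 ± 0.20, limma adjusted p = 0.00546; lost without knockout-control array 1 at 0.0541) and 3.26-fold lower in knockdown than in wild-type cells (-1.70 ± 0.20, limma adjusted p = 0.00228). The arrays of the knockdown and knockout-control cells overlapped. Slc16a1 encodes MCT1, which carries lactate, pyruvate and ketone bodies, and stood at 3300 and 2009 in knockdown cells, 1782 and 2581 in knockout-control cells and 3818 and 3797 in wild-type cells. Both knockout lines were below wild type, but no difference passed (lowest limma adjusted p = 0.103). The lower array of each pair was knockdown array 2 and knockout-control array 1, the arrays with the most empty cells. With 1 array left out, the difference between knockout-control and wild type (-0.82) lay between -1.08 and -0.56. That between knockdown and wild type lay between -0.91 and -0.20. Slc16a7, which encodes MCT2, did not exceed 25.9 on the 4 arrays with a number.

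Of the pentose phosphate enzymes Pgd, Tkt and Taldo1, 1 was called in knockdown against wild-type cells and none by limma in knockout-control against wild-type cells. All 3 had an unadjusted p under 0.05 in the latter, as did 2885 of 13652 genes over all genes. Pgd, 6-phosphogluconate dehydrogenase, which makes NADPH, had intensities of 6004 and 5627 in knockdown cells, 5576 and 5819 in knockout-control cells and 3958 and 3845 in wild-type cells. It rose 1.49-fold in knockdown against wild-type cells (0.57 ± 0.14, limma adjusted p = 0.0361), while the like difference in knockout-control cells did not pass (0.54 ± 0.14, limma adjusted p = 0.0567, and 0.51 to 0.57 with 1 array left out). The call was lost without any 1 array of wild type or knockout-control (highest limma adjusted p = 0.300), and the 4 probe sets of Pgd all had a positive sign against wild type. Tkt, transketolase of the non-oxidative branch, stood at 10427 and 10130 in knockdown cells, 11049 and 10920 in knockout-control cells and 8114 and 8197 in wild-type cells. Taldo1, transaldolase of the same branch, stood at 5640 and 4444 in knockdown cells, 4448 and 5034 in knockout-control cells and 3264 and 3532 in wild-type cells. Neither was called (lowest limma adjusted p = 0.0723, Taldo1 in knockdown cells). Each group lay above wild type without overlap, which held for 55.0% and 58.1% of all genes in knockdown and knockout-control cells. With 1 array left out, Taldo1 lay between 0.39 and 0.56 on the log2 scale in knockout-control against wild-type cells. In knockdown against wild-type cells it lay between 0.38 and 0.73. Between knockdown and knockout-control cells the 3 enzymes had log2 fold changes of -0.10 to 0.08.

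Other genes of these pathways were read from a list of 50, of which 37 lay above the filter. None was called by limma for knockdown against knockout-control, at a median of 0.04. There 3 had an unadjusted p under 0.05, beside 1930 of 13649 genes over all genes. For knockout-control against wild type 1 rose and 3 fell, at a median of -0.12, and for knockdown against wild type 1 rose and 0 fell, at a median of -0.07. The one that rose was H6pd, which runs the start of the pentose phosphate pathway inside the endoplasmic reticulum, with intensities of 2335 and 2098 in knockdown cells, 2147 and 2159 in knockout-control cells and 1106 and 1120 in wild-type cells. It was 1.96-fold higher in knockdown than in wild-type cells (limma adjusted p = 0.00502) and 1.91-fold higher in knockout-control than in wild-type cells (limma adjusted p = 0.00731). The 3 that fell in knockout-control cells were Prps1, a ribose phosphate pyrophosphokinase encoded on the X chromosome (1.79-fold), Ldhd, which oxidises D-lactate (1.60-fold), and Emb, embigin, a partner of lactate transporters (1.49-fold). Over all genes 6.05% were called for knockout-control against wild type and 10.0% for knockdown against wild type.

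Of 19 regulators of glucose uptake and glycolysis above the filter, 4 rose and 3 fell in knockout-control against wild-type cells, and 3 rose and 2 fell in knockdown against wild-type cells, at medians of -0.13 and -0.12. Over all genes the shares called in these comparisons were 6.05% and 10.0%. For knockdown against knockout-control none was called by limma, and 3 had an unadjusted p under 0.05, beside 1930 of 13649 genes over all genes. Txnip, an arrestin-like protein that lowers glucose uptake, had intensities of 7634 and 8053 in knockdown cells, 8641 and 9007 in knockout-control cells and 2723 and 3176 in wild-type cells. Mlxipl, the glucose-responsive factor ChREBP, stood at 1748 and 1662, 2192 and 2177, and 748 and 735 in the same groups. Klf15, a transcription factor known to raise Slc2a4 in adipocytes, was 2.54-fold higher in knockdown and 2.18-fold higher in knockout-control than in wild-type cells. Vamp2, a vesicle protein of GLUT4 insertion, was 2.61-fold lower in knockdown and 2.09-fold lower in knockout-control than in wild-type cells, while Slc2a4 itself did not pass.

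For hypoxia-inducible factors, 19 known targets outside glycolysis were read beside the glycolytic genes. Of these 1 rose for knockdown against knockout-control, 5 fell for knockout-control against wild type, and 1 rose and 7 fell for knockdown against wild type, at medians of -0.18, -0.26 and -0.38. Over all genes the shares called in these comparisons were 0.835%, 6.05% and 10.0%. For knockout-control against wild type 14 of the 19 were not called and 6 had a positive sign. Car9, a carbonic anhydrase, had intensities of 129 and 193 in knockdown cells, 229 and 360 in knockout-control cells and 2293 and 2572 in wild-type cells. Plod2, a collagen-modifying enzyme, stood at 811 and 693 in knockdown cells, 342 and 533 in knockout-control cells and 2658 and 2650 in wild-type cells. Ndrg1, a growth-arrest gene, was 3.45-fold lower in knockout-control than in wild-type cells, at 656 and 1878 against 3771 and 4075, and Ddit4, an inhibitor of mTORC1 signalling, was 2.59-fold higher in knockdown than in knockout-control cells. Hk1, Pfkm, Aldoc, Ldhb and Slc16a3 fell in knockout-control against wild-type cells. In the same comparison Hk2 rose, and Ldha, Pgk1 and Aldoa had log2 fold changes of -0.06 to 0.03. Slc2a1 had -0.55 and did not pass. The glycolytic genes were not sorted here into targets of these factors and others. Whether these differences share a cause was not tested. Preadipocyte and fibroblast markers changed in part, with 1 of 9 up in the knockdown step, Dlk1, an inhibitor of adipocyte differentiation, at 1609 and 1452 in knockdown cells against 384 and 438 in knockout-control cells. In the comparisons with wild type 3 rose and 2 fell in knockdown cells, and 2 fell in knockout-control cells. Of 11 cell cycle genes none was called in any comparison.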

How the data were processed

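Total RNA of 6 differentiated brown fat cell samples was biotin-labelled and hybridised to one-colour arrays, per the labels. Groups and replicate numbers came from the sample titles. The authors deposited 1 linear intensity per probe set and array for 45037 probe sets, with no statement, in the sources used here, of how these were summarised, scaled or corrected for background. Array medians lay close together, so intensities were not scaled again. Cells holding the word null (5285) or nothing (870) were kept as missing. Limits of detection per probe set were not used here, and the number of arrays limits the precision.

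Probe sets with 1 symbol (34945) took their names from GEO's annotation of the platform (2016), with symbols brought up to date through Entrez numbers and the GRCm38.p6 gene table. The 932 with several symbols and the 9160 with none were left out. Each of 18193 genes was read from its brightest probe set by mean log2 value, and the 13658 genes whose mean reached 7.61 on the log2 scale, the 40th percentile over probe sets, were tested. One limma model (version 3.58.1, R 4.3.3) of group means was fitted to log2(intensity + 32) on all 6 arrays, with eBayes (3 residual and 5.45 prior degrees of freedom) and Benjamini-Hochberg adjustment over all genes, at a threshold of 0.05. Other probe sets of a gene were fitted together with all probe sets above the filter, an alternative chosen after seeing the data. All adjusted p-values are from limma. The procedure was tested on simulated arrays for knockdown against knockout-control over 13658 genes, of which 200 were changed. Every simulated gene had the same spread and the arrays were independent, which does not hold for the real arrays. There 98% of genes changed 2-fold were called. This checks the code and does not give the share of real changes that would be called. With 2 arrays a group, exact permutation cannot reach 0.05 and was not used.

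The 34 genes, the gene lists and the rule for named genes (all 34, and up to 4 called genes of each further list with the largest change) were chosen with earlier results of these data known. Promoter sequences are from RefSeq, and motif counts used both strands. Alternatives were other pseudocounts (16, 64), filters, quantile normalization, averaging all probe sets of a gene, the replicate number as a block, eBayes with trend and robust settings, and each array left out.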

Additional observations from a re-analysis of the deposited data

How the results depend on the processing

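No called value of the 34 genes changed sign under any alternative run. Calls did change: over 1083 recomputed values of single genes, 39 were no longer called and 37 became called, and Hk1 in both comparisons with wild type, and Ldhb and Slc16a3 in knockdown against wild-type cells, were called under each of the 14 settings.

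Counts of the 26 genes called are given for knockdown against knockout-control, knockout-control against wild type and knockdown against wild type, with 2, 6 and 7 in the report. With no filter on dim genes the first was 0 (Aldoc and Ldhb no longer called; 9 of all genes were). With the mean of the probe sets it was 1. Quantile normalization gave 11 and 12 in the other 2, and eBayes with trend and robust settings 11 in the last. With each array left out the counts lay between 0 and 3, 2 and 9, and 3 and 11.

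Over all genes, with 114, 826 and 1365 called, no filter gave 9, 364 and 585, quantile normalization 377, 1647 and 2306, and the mean of the probe sets 13, 474 and 778. The filter at the 60th percentile gave 199 and the trend and robust settings 325 in the first comparison. With each array left out the counts lay between 8 and 539, 232 and 1786, and 327 and 2339. Quantile normalization moved the split of higher against lower calls to 191 and 186 for knockdown against knockout-control (37 and 77 in the report's fit) and to 1272 and 1034 for knockdown against wild type (546 and 819). The cause of these shifts was not tested.

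The replicate numbers were not taken to pair the arrays, since the deviations of same-numbered arrays correlated with r = 0.20, -0.15 and -0.50 between groups. With the replicate number as a block, 1, 4 and 6 of the 26 genes and 22, 410 and 735 of all genes were called in the 3 comparisons. The calls lost were those of Aldoc for knockdown against knockout-control (limma adjusted p = 0.0936), Ldhb (0.0536) and Pfkm (0.0773) for knockout-control against wild type, and Pgd for knockdown against wild type (0.0951).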
